A study of Mus musculus with 6 samples.

Results

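The replication-dependent histone genes are the mostly intronless gene copies, packed into the clusters Hist1 to Hist4, that make the bulk of the histone proteins laid onto newly copied DNA. They were chosen here by name and by level: a mouse symbol beginning with Hist1h, Hist2h, Hist3h or Hist4h, no ending in -ps, and at least 10 reads in 3 or more of the 6 libraries. The name alone gave 69 genes and the reads left 65, out of 53379 genes with a row and 19339 tested. Each of the 65 reached 10 reads in all 6 libraries, so none entered through 1 group alone, and all 65 passed the filter on low counts.

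RNA was sequenced from the Lgr5-EGFP-high crypt cells of the proximal small intestine of C57BL/6 mice, in 3 control libraries and 3 libraries labelled Klf5-KO. Lgr5 is the R-spondin receptor that marks cycling stem cells of the crypt base. Control mice carried Lgr5-EGFP-IRES-CreERT2, which makes a tamoxifen-dependent Cre recombinase from the Lgr5 locus, and a Rosa-tdTomato reporter; mice labelled Klf5-KO carried both and Klf5fl/fl. Both groups received tamoxifen (1 mg in 0.1 mL, on 5 days), so Cre was also activated in the controls, and ribosomal RNA was depleted from total RNA, with no selection for poly(A).

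Canonical histone mRNAs are the animal mRNAs that end without a poly(A) tail. Their 3′ end is a short conserved stem-loop bound by SLBP, cut with the help of the U7 snRNP just downstream, and it ties the mRNA to S phase, after which the transcript is uridylated and degraded. Transcription is driven in S phase through NPAT at histone locus bodies; core histones H2A, H2B, H3 and H4 form the nucleosome, and H1 binds the linker DNA between nucleosomes.

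The stem-loop is printed for 8 genes that span the histone types, because it is the feature that sets these mRNAs apart. Of these Hist1h1t was called lower in Klf5-KO, Hist2h2ac was not called and the others were called higher. Each line gives 5 bases, the 16-base stem-loop of 6 base pairs and 4 loop bases in capitals, and 5 bases, written 5′ to 3′ as DNA from GENCODE vM21 transcripts.
Hist1h1d: caaacGGCTCTTTTCAGAGCCaccca
Hist1h1t: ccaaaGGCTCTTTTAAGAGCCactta
Hist1h2be: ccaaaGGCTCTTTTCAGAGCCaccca
Hist1h3g: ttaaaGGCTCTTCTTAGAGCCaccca
Hist2h2ac: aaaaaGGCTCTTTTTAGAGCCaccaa
Hist1h4n: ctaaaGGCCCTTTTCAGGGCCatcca
Hist1h4j: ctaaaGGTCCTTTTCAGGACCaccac
Hist2h4: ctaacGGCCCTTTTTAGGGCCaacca
In mm10 the capitals lie at chr13:23555787-23555802 on the plus strand for Hist1h1d, chr13:23696525-23696540 (plus) for Hist1h1t, chr13:23585531-23585546 (minus) for Hist1h2be and chr13:23535889-23535904 (plus) for Hist1h3g. Those of Hist2h2ac lie at chr3:96220418-96220433 (minus), of Hist1h4n at chr13:21831798-21831813 (minus), of Hist1h4j at chr13:21735437-21735452 (plus) and of Hist2h4 at chr3:96262939-96262954 (minus). A stem-loop was found in 44 of the 65 genes, in 8 spellings. The form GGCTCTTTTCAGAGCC was shared by 24 genes of H1, H2A, H2B and H3, and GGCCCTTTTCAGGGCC by 7 genes, all H4. Of the others 15 had under 60 annotated bases after the stop codon and 2 had no coding model. The remaining 4 had a longer end with no match within 150 bases of the stop codon: Hist1h2bc, Hist1h2bq, Hist1h2br and Hist2h2be, all H2B genes.

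The counts of Klf5 go against the label: 480, 512 and 547 CPM (counts scaled to a fixed library size, here the TMM-scaled one) in control 1 to 3 and 880, 918 and 877 in the libraries labelled Klf5-KO, a log2 fold change of 0.80 ± 0.10 (SE; edgeR adjusted p = 0.00063). These counts take in all exons of Klf5, and cannot tell floxed exons from the rest. Throughout, Klf5-KO is the label of these libraries, and each direction given rests on it. Depth was 61563625 to 77666540 counts per library. The labelled cell type was present by its markers. Lgr5 was at 132, 163 and 128 CPM in the controls and 96.8, 81.2 and 84.9 in the libraries labelled Klf5-KO. Of 10 stem cell markers 8 were called lower in Klf5-KO (summed CPM 8810 to 12100 in controls, 4440 to 5910 in Klf5-KO). Beside this and the marker counts that follow, 13.3% of all genes tested were called higher and 12.5% lower (edgeR adjusted p under 0.05). Control 3 stood apart in 7 Paneth cell markers, with a summed 16800 CPM against 1460 and 1730 in controls 1 and 2 and 7690 to 9670 in Klf5-KO; 0 of the 7 were called (edgeR; 0 at an unadjusted p under 0.05). Enterocyte markers were higher in 3 of 7 (334 to 573 against 644 to 1470 summed CPM), and 0 of 12 leukocyte markers were called (24.5 to 48.9 against 32.1 to 35.5; 1 at an unadjusted p under 0.05). Goblet (2 of 6) and enteroendocrine markers (5 of 7) were lower, and tuft markers (3 of 5) higher. Of 6 epithelium markers 4 were lower, Krt8, Krt18, Krt19 and Cdh1 (summed CPM 5050 to 5580 in controls, 3840 to 4350 in Klf5-KO). Of 3 mesenchyme and endothelium markers tested 1, Col1a2, was higher, at no more than 0.87 CPM (summed over 7 markers, 1.62 to 2.92 against 1.84 to 2.54). No marker of these lists was at 0 in all libraries, and their part in the histone result was not tested. In sorted bulk RNA, fewer cells of a type and less RNA per cell cannot be told apart.

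Histone cluster genes stood higher in the libraries labelled Klf5-KO, by a modest amount. The median log2 fold change over the 65 genes was 0.28, beside -0.01 over all genes tested; 57 were positive and 8 negative, from -1.45 to 0.72. At an adjusted p under 0.05 (edgeR quasi-likelihood, adjusted over all 19339 genes) 22 of the 65 were higher, or 33.8%, where 13.3% of all genes were called higher. Only 1, Hist1h1t, was lower, where 12.5% of all genes were called lower, and 42 were not called in either direction. In 23 of the 65 (35.4%) each library labelled Klf5-KO exceeded each control, beside 22.2% of all genes. The labels do not say that each library came from its own mouse, so the p-values speak of library spread, which may be technical.

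The number of calls rested on single libraries. It fell from 22 of 65 to 7 without control 2 or without Klf5-KO 1, to 8 without Klf5-KO 2 and to 15 without control 3. It was 24 without control 1 and 23 without Klf5-KO 3. All genes called higher, 2581 of 19339 with all 6 libraries, were 1689 of 19895 without control 2 and 1605 of 20049 without Klf5-KO 1. They were 2036 of 20062 without Klf5-KO 2, 2740 of 19879 without control 3, 2148 of 19818 without control 1 and 1783 of 19914 without Klf5-KO 3. With an offset for the trend of counts with gene length 14 of the 65 were higher. The median stayed between 0.23 and 0.38. Hist2h2ab, Hist1h4n, Hist2h2bb, Hist1h4m, Hist1h4j, Hist1h1d, Hist1h3i and Hist1h1t were called in the same direction in each of the 6 fits that leave out a library (edgeR adjusted p of at most 0.046). The other 15 genes called higher were not called without control 2, nor without Klf5-KO 1.

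**Figure D1:**
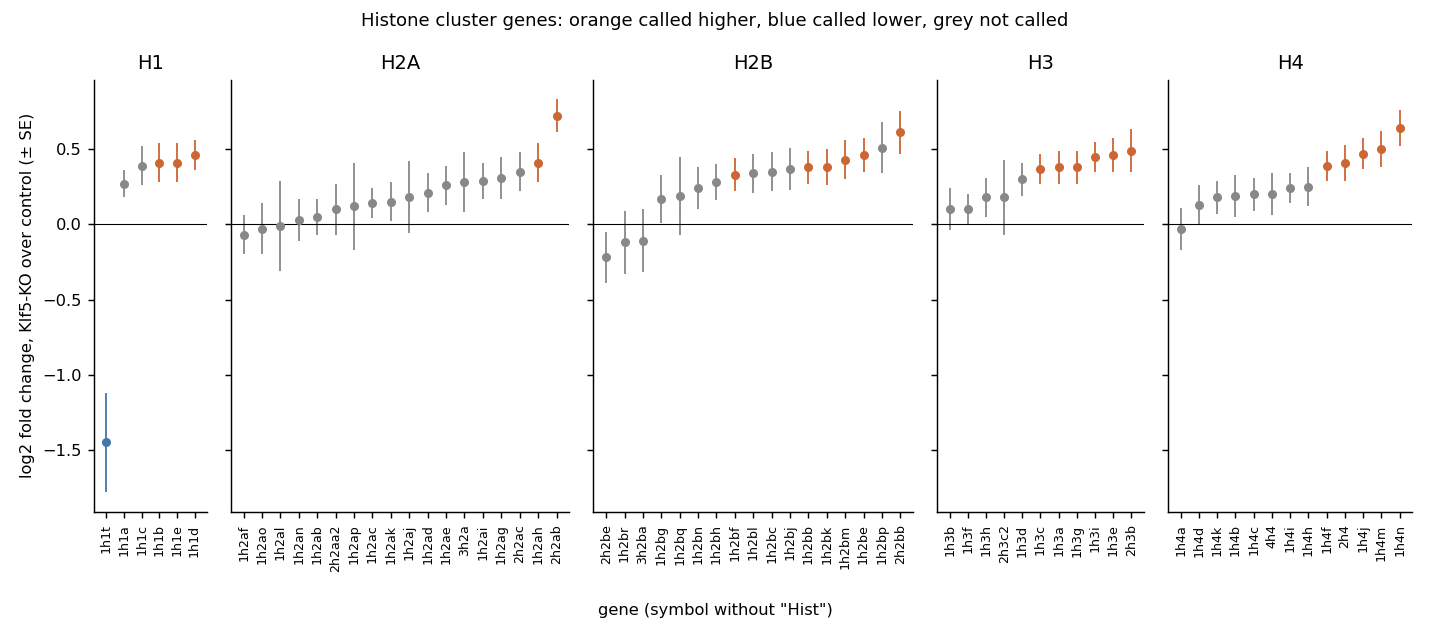
Log2 fold change (Klf5-KO over control, ± SE, y axis) of each of the 65 histone cluster genes, by histone type and in rising order (x axis). Most points lie above 0 and below 0.72; Hist1h1t, at -1.45, is the 1 gene called lower.

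Summed over the 65 genes, histone mRNA made up 11188, 9539 and 9530 CPM in control 1 to 3 and 13450, 12390 and 10834 CPM in Klf5-KO 1 to 3. The means were 10086 ± 954 and 12225 ± 1316 (SD, n = 3 each), a ratio of 1.21. The groups overlapped in this sum, because control 1 stood above Klf5-KO 3. Gene by gene the same libraries marked the ends: Klf5-KO 1 held the highest value in 35 of the 65 genes and Klf5-KO 2 in 14, whereas control 2 held the lowest in 29 and control 3 in 28. Control 1 was highest in 7 genes and Klf5-KO 3 in 5.

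**Figure D2:**
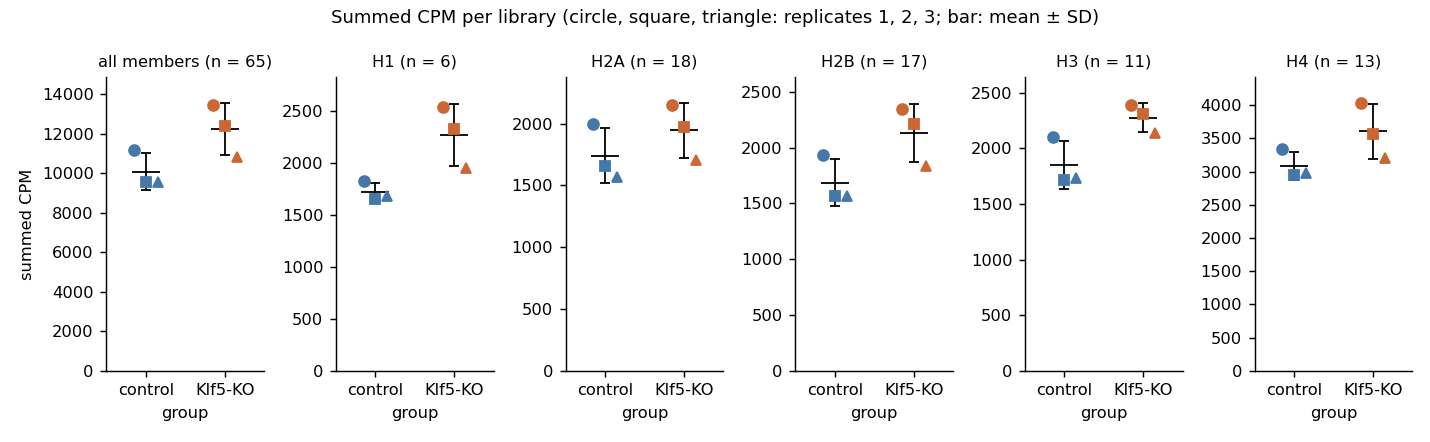
Summed CPM per library (y axis) in the control and Klf5-KO groups (x axis), for all 65 histone cluster genes and for each type; bars are mean ± SD, n = 3. The groups do not overlap for H1 and H3, and overlap for all genes together, H2A, H2B and H4, where control 1 lies above Klf5-KO 3.

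Among the linker histone genes, all but 1 had positive fold changes. Of the 6 H1 genes 3 (50%) were called higher and 1 (16.7%) lower, beside 13.3% and 12.5% of all genes. Without control 2, control 3, Klf5-KO 1 or Klf5-KO 2 in turn, 1 was called higher. Without control 1 the count was 2, and without Klf5-KO 3 it was 4. The H1 genes had a median of 0.40, and their summed CPM was 1822, 1652 and 1680 in controls and 2533, 2327 and 1948 in Klf5-KO (1718 ± 91 against 2269 ± 297, ratio 1.32). These sums did not overlap, and H1 took 16.3, 17.3 and 17.6% of the histone cluster counts in controls and 18.8, 18.8 and 18% in Klf5-KO. Hist1h1d, a somatic H1 gene at chr13:23553262-23560686 (plus strand), was at 328, 299 and 294 CPM in controls and 467, 408 and 395 in Klf5-KO. Its groups did not overlap, and the log2 fold change was 0.46 ± 0.10 (edgeR adjusted p = 0.0094). Its printed stem-loop lies at the end of a canonical message, although the annotated model runs 4884 bases beyond it. Hist1h1e, the most counted H1 gene, was at 569, 494 and 560 against 782, 775 and 598 CPM (log2 fold change 0.41 ± 0.13, edgeR adjusted p = 0.044). Hist1h1b was at 322, 285 and 257 against 433, 394 and 321 CPM (0.41 ± 0.13, edgeR adjusted p = 0.044), with control 1 just above Klf5-KO 3. Hist1h1c, at 429, 412 and 414 against 636, 558 and 451 CPM, had no overlap and a log2 fold change of 0.39 ± 0.13, but missed the threshold (edgeR adjusted p = 0.05 after rounding).

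Hist1h1t, which encodes the testis-specific linker histone, was the exception. It was read 45, 52 and 62 times in control 1 to 3 and 24, 14 and 19 times in Klf5-KO 1 to 3, that is 0.618, 0.674 and 1 CPM against 0.351, 0.218 and 0.262. The groups did not overlap, and the log2 fold change was -1.45 ± 0.33 (edgeR adjusted p = 0.011), a fold of 0.37. This gene lies at chr13:23695814-23696725 (plus strand) inside the Hist1 cluster, has a stem-loop of the form also found in Hist1h2bb, Hist1h2bk, Hist1h3c, Hist1h3e and Hist1h3f, and was counted far less than any of these.

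**Figure D3:**
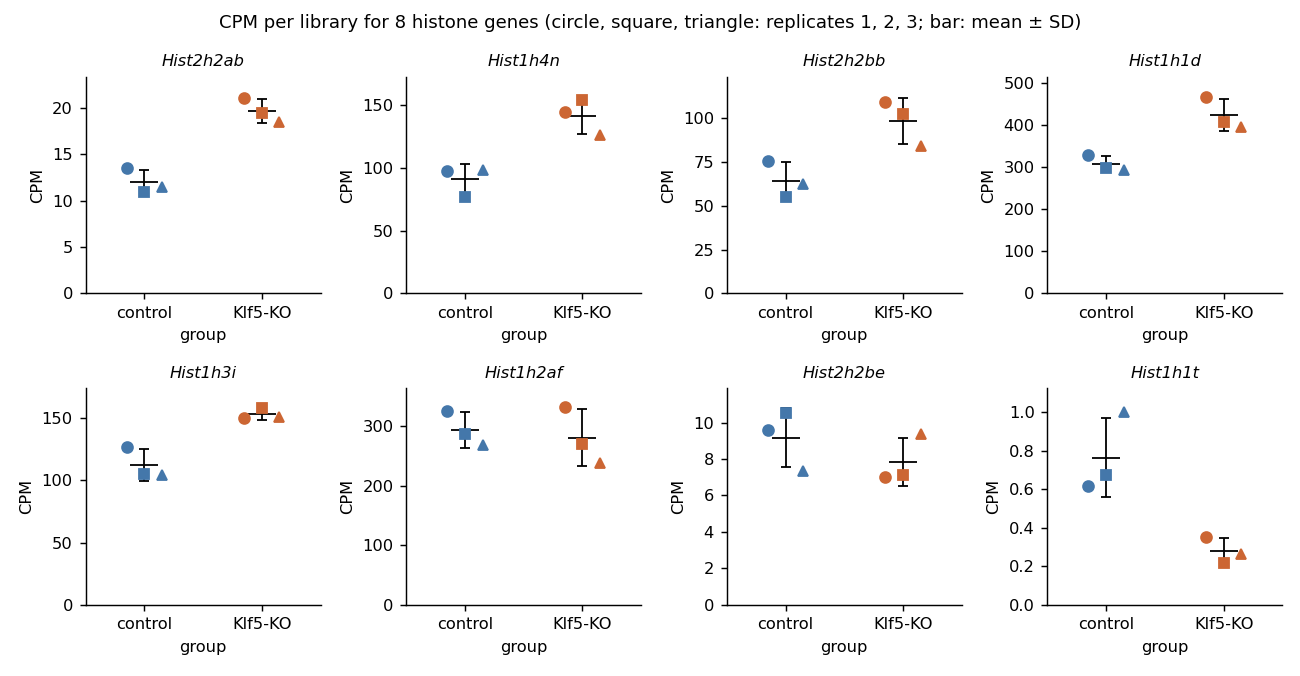
CPM per library (y axis, from 0) in control and Klf5-KO (x axis) for 8 histone genes; bars are mean ± SD, n = 3. Hist2h2ab, Hist1h4n, Hist2h2bb, Hist1h1d and Hist1h3i are higher in Klf5-KO with no overlap, Hist1h2af and Hist2h2be overlap, and Hist1h1t is lower.

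Core H2A genes moved least in the median, at 0.16, and yet hold the gene with the highest fold change. Of 18 H2A genes 2 (11.1%) were called higher, no more than the 13.3% of all genes, and 0 lower (edgeR; 4 at an unadjusted p under 0.05), and the summed CPM was 1995, 1657 and 1572 in controls and 2151, 1977 and 1708 in Klf5-KO (ratio 1.12), with overlap. Hist2h2ab, in the Hist2 cluster at chr3:96219865-96220308 (plus strand), was at 13.5, 10.9 and 11.5 CPM in controls and 21.1, 19.5 and 18.5 in Klf5-KO. All 3 Klf5-KO values exceeded the highest control, and the log2 fold change was 0.72 ± 0.11 (edgeR adjusted p = 0.0022). Hist1h2ah was at 100, 76.2 and 84.7 against 125, 123 and 98 CPM (0.41 ± 0.13, edgeR adjusted p = 0.043), with control 1 above Klf5-KO 3. The 3 most counted H2A genes were not called: Hist1h2ak had a log2 fold change of 0.15 ± 0.13, Hist1h2ab 0.05 ± 0.12 and Hist1h2af -0.07 ± 0.13 (edgeR adjusted p = 0.43, 0.81 and 0.75). Hist1h2af was at 326, 287 and 268 CPM in controls and 332, 270 and 239 in Klf5-KO, with overlapping groups. Outside Hist1, Hist2h2ac was at 112, 101 and 81.5 against 137, 131 and 108 CPM (0.35 ± 0.13, edgeR adjusted p = 0.079). Hist2h2aa2 (0.10 ± 0.17) and Hist3h2a (0.28 ± 0.20) stood below 10 CPM and were not called. In Hist2h2aa2 0% of 50-base stretches were unique, and Hist3h2a shares 708 exon bases with Trim17 on the same strand. Reads of both may therefore be lost.

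Among 17 H2B genes 6 (35.3%) were called higher and 0 lower, beside 13.3% and 12.5% of all genes. At an unadjusted p under 0.05 there were 11 (edgeR). Without control 2, Klf5-KO 1 or Klf5-KO 2 in turn, 1 H2B gene was called higher. Without control 1 the count was 7, without control 3 it was 3 and without Klf5-KO 3 it was 8. The H2B genes had a median of 0.34. Their summed CPM was 1932, 1562 and 1565 against 2342, 2207 and 1838 (ratio 1.26), and control 1 overlapped Klf5-KO 3. Hist2h2bb, at chr3:96269752-96270132 (plus strand), was at 75.6, 54.9 and 62.2 CPM in controls and 109, 102 and 83.8 in Klf5-KO. The groups did not overlap (log2 fold change 0.61 ± 0.14, edgeR adjusted p = 0.011); 226 bases of its exon are shared on the same strand with the gene Gm42743. Hist1h2be was at 116, 96.3 and 101 against 148, 159 and 123 CPM (0.46 ± 0.11, edgeR adjusted p = 0.018), a call that was lost without control 2 (adjusted p = 0.062), without Klf5-KO 1 (0.062) or without Klf5-KO 2 (0.052). Its gene model shares 496 bases with Hist1h1e on the same strand, so reads there are uncertain for both. Hist1h2bb (0.38 ± 0.11) and Hist1h2bm (0.43 ± 0.13) were also higher (edgeR adjusted p = 0.033 and 0.035).

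Among the H2B genes that were not called, Hist1h2bc was at 247, 208 and 240 against 338, 308 and 240 CPM (0.35 ± 0.13, edgeR adjusted p = 0.082), with Klf5-KO 3 at the level of control 3. Hist2h2be, by contrast with its cluster, was at 9.59, 10.5 and 7.36 CPM in controls and 7.04, 7.15 and 9.36 in Klf5-KO, overlapping (-0.22 ± 0.17, edgeR adjusted p = 0.38). Hist1h2bg (0.17 ± 0.16), Hist1h2bn (0.24 ± 0.14) and Hist3h2ba (-0.11 ± 0.21) were not called.

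H3 genes were positive without exception, with 6 of 11 (54.5%) called higher and 0 lower, beside 13.3% and 12.5% of all genes. At an unadjusted p under 0.05 there were 7 (edgeR). Without control 2, Klf5-KO 1 or Klf5-KO 2 in turn, 1 H3 gene was called higher. Without control 1 the count was 6, without control 3 it was 5 and without Klf5-KO 3 it was 3. The H3 genes had a median of 0.37. Their summed CPM was 2103, 1715 and 1736 in controls and 2388, 2307 and 2135 in Klf5-KO (1852 ± 218 against 2277 ± 129, ratio 1.23), without overlap. Hist1h3i was at 127, 105 and 104 against 150, 158 and 151 CPM. The 3 Klf5-KO libraries lay close together, above each control (log2 fold change 0.45 ± 0.10, edgeR adjusted p = 0.0094). Hist1h3e was at 278, 229 and 288 against 367, 393 and 330 CPM (0.46 ± 0.11, edgeR adjusted p = 0.018). Hist2h3b was at 136, 112 and 145 against 198, 206 and 149 CPM (0.49 ± 0.14, edgeR adjusted p = 0.028), where Klf5-KO 3 was just above control 3. Hist1h3c had a log2 fold change of 0.37 ± 0.10 (edgeR adjusted p = 0.028). The most counted H3 gene, Hist1h3b, was not called (414, 326 and 294 against 420, 343 and 345 CPM, 0.10 ± 0.14, edgeR adjusted p = 0.64), nor was Hist2h3c2 (0.18 ± 0.25).

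The H4 genes called higher were not the most counted ones. Of 13, 5 (38.5%) were called higher and 0 lower, beside 13.3% and 12.5% of all genes. At an unadjusted p under 0.05 there were 6 (edgeR). In the fits that leave out 1 library, 3 to 5 H4 genes were called higher. With all libraries the H4 median was 0.24 and the summed CPM 3335, 2954 and 2976 against 4037, 3572 and 3205 (ratio 1.17), overlapping. Hist1h4n, at chr13:21831767-21832196 (minus strand), was at 97, 76.7 and 98.2 CPM in controls and 144, 154 and 126 in Klf5-KO, with no overlap (0.64 ± 0.12, edgeR adjusted p = 0.0045). Hist1h4m was at 117, 99.2 and 115 against 162, 175 and 134 CPM (0.50 ± 0.12, edgeR adjusted p = 0.012). Hist1h4m and Hist1h4n have identical coding sequences, and reads that match both may be lost. Of their 50-base stretches 10.2% and 14.4% were found in no other gene, so each value may rest on a small part of the gene. The independence of the 2 values was not tested. Hist1h4j, with the variant stem-loop printed above, was at 89.3, 78.5 and 89.9 against 129, 124 and 104 CPM (0.47 ± 0.10, edgeR adjusted p = 0.01). Hist1h4f (0.39 ± 0.10) and Hist2h4 (0.41 ± 0.12) were higher too (edgeR adjusted p = 0.016 and 0.035).

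The 3 most counted H4 genes were not called. Hist1h4d, the most counted histone gene of all, was at 766, 656 and 623 CPM in controls and 842, 728 and 660 in Klf5-KO (0.13 ± 0.13, edgeR adjusted p = 0.51). Hist1h4c had a log2 fold change of 0.20 ± 0.11 and Hist1h4h of 0.25 ± 0.13. Hist4h4, the single gene of the Hist4 locus at chr6:136801553-136804415, was at 81.7, 88.9 and 120 against 111, 120 and 101 CPM (0.20 ± 0.14, edgeR adjusted p = 0.34). Differences in calls between the 5 histone types were not tested.

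By locus, the called genes lay in Hist1 and Hist2. The 54 Hist1 genes on chromosome 13 had a median log2 fold change of 0.27. Of these 18 (33.3%) were higher and 1 (1.85%) lower, beside 13.3% and 12.5% of all genes. They fall into 3 stretches and a lone gene: 1 at chr13:21715763-21837530 (6 of 19 higher, median 0.24), 1 at chr13:22035164-22043676 (2 of 5 higher, 0.37) and 1 at chr13:23531050-23764406 (10 of 29 higher and 1 lower, 0.27). The lone gene is the pseudogene Hist1h2al. The 8 Hist2 genes on chromosome 3 had a median of 0.38 with 4 higher, and the 3 genes of Hist3 and Hist4 were not called.

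Many H2A and H2B genes sit head to head and share 1 promoter region, which the data can compare side by side. There were 12 such pairs, with start sites at most 302 bases apart. In 9 both fold changes were above 0, and in 8 the H2B gene had the higher one. Of the 12 pairs 9 were called on neither side and 2 on 1 side, where 13.3% of all genes were called higher. The 1 pair called on both sides was Hist1h2ah and Hist1h2bk (0.41 and 0.38). Hist1h2bk was at 152, 116 and 118 against 180, 172 and 152 CPM. Hist1h2bf (0.33) was called and its partner Hist1h2ad (0.21) was not, and Hist1h2bm (0.43) was called and the pseudogene Hist1h2aj (0.18) was not. The widest gap was that of Hist2h2ac (0.35) and Hist2h2be (-0.22), which differ by 0.57, followed by Hist1h2an (0.03) and Hist1h2bp (0.51, not called). These differences within pairs were not tested.

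**Figure D4:**
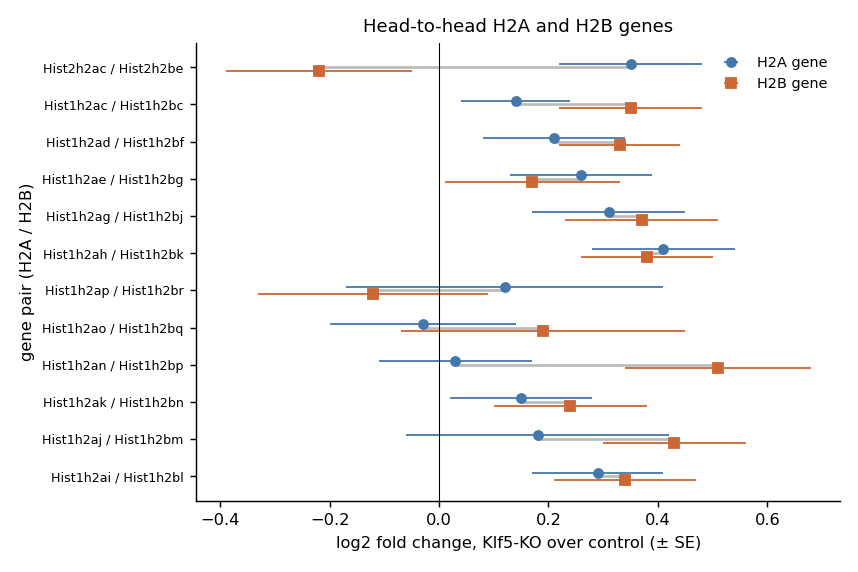
Log2 fold change (Klf5-KO over control, ± SE, x axis) of the H2A and the H2B gene in each of the 12 head-to-head pairs (y axis). Hist1h2ah and Hist1h2bk lie together at 0.41 and 0.38, and Hist2h2ac and Hist2h2be lie 0.57 apart.

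Promoters are printed for 3 of the higher genes: Hist2h2ab, with the highest fold change; Hist1h2bk, whose window holds the region shared with Hist1h2ah; and Hist1h4n, as the H4 form. Each runs from 250 bases before to 50 after the RefSeq start (GRCm38.p6), 5′ to 3′ on the gene's strand, with matches on either strand to CCAAT, the box bound by NF-Y, in capitals. Also in capitals are matches to TATAAA, the core promoter box, and to the octamer ATTTGCAT bound by Oct factors.
Hist2h2ab: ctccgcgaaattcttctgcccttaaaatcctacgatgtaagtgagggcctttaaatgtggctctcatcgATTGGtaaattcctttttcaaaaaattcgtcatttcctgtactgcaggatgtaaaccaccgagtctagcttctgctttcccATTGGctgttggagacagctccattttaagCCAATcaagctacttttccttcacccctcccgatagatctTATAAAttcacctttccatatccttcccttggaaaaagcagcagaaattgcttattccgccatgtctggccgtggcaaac
Hist1h2bk: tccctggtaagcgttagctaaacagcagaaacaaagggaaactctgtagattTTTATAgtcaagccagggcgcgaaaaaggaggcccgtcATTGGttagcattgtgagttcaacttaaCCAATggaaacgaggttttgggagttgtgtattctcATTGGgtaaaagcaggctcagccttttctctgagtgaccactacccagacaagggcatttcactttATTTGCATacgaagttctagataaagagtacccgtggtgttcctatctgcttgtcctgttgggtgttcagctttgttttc
Hist1h4n: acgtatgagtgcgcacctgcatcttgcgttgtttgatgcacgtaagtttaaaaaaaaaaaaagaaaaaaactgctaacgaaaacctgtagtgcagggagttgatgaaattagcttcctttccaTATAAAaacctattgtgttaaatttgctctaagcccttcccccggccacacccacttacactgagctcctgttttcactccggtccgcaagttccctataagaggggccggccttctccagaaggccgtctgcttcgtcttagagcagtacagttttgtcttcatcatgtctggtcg
The windows are chr3:96219635-96219934 (plus), chr13:22035571-22035870 (plus) and chr13:21832148-21832447 (minus). Of the 65 genes 58 had a promoter in the RefSeq table. Searched on both strands, CCAAT was in each of the H1 (6), H2A (16), H2B (15) and H3 (9) promoters but in 3 of 12 H4 promoters (25%), beside 37.4% of all promoters of this length. TATAAA was in 32 of 58 (55.2%, all promoters 13.6%). The octamer was in 11 of 58 (19%, all promoters 1.74%), 6 of H2A and 5 of H2B. CACCC, the letters at the core of many Kruppel-like factor sites, was in 31% of the 58, beside 57.5% of all promoters. By call, CCAAT was in 80% of 20 higher and 86.5% of 37 uncalled genes, TATAAA in 65 and 51.4%, the octamer in 25 and 16.2% and CACCC in 35 and 29.7%, differences that were not tested. A match is a stretch of letters and not a bound site.

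Sequence likeness limits how well 1 copy can be told from another. The share of 50-base stretches found in no other gene was taken over a gene's whole transcripts, with their untranslated ends. Genes that share exon bases with it were left aside, as Gm42743 was for Hist2h2bb, Trim17 for Hist3h2a, and Hist1h1e and Hist1h2be for each other. Reads on such shared bases may still be lost. This share had a median of 98.9% in H1, 26.8% in H2A, 55.9% in H2B, 39.6% in H3 and 60.5% in H4. The 12 genes with 90% or more had a median log2 fold change of 0.40 with 6 higher. Hist1h1e, Hist1h2be, Hist2h2bb and Hist3h2a are among these 12. The 22 between 50 and 90% had 0.29 with 7 higher, and the 31 under 50% had 0.19 with 9 higher, where 13.3% of all genes were called higher. All 6 H1 genes are in the first of these sets, and the order was not tested. Among the genes named above, Hist1h1d stood at 97.7%, Hist2h2bb at 100%, Hist2h2ab at 79%, Hist1h4j at 75.4%, Hist1h4n at 14.4%, Hist1h3i at 12.4% and Hist1h4m at 10.2%. The 4 H2B genes without a stem-loop match had a median log2 fold change of 0.04 (range -0.22 to 0.35), beside 0.29 for the 44 genes with one, a difference that was not tested. Across the 65 genes the log2 fold change went with log2 mean CPM at a Spearman rho of 0.16 (Pearson r 0.47), and with log2 model length at -0.02 (r -0.07); this is across genes that share libraries and is given as a description.

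Genes for the making of histone mRNA were rarely called higher, where 13.3% of all genes were called higher and 12.5% lower. The 9 genes for histone gene transcription take in NPAT, its partner and the cyclin E and Cdk2 genes beside transcription factors. Among these 9, 0 were called higher and 1 lower (11.1%, near the share of all genes), with a median of -0.08. NPAT's gene Npat was at 41.2, 39.1 and 28.4 CPM in controls and 40.1, 35.6 and 36.9 in Klf5-KO (0.05 ± 0.14, edgeR adjusted p = 0.82). Casp8ap2, a partner of NPAT in histone locus bodies, had a log2 fold change of -0.03 ± 0.15, and E2f1, the S phase transcription factor, of -0.40 ± 0.10 (edgeR adjusted p = 0.02). E2f1 was called without control 3, but not without any of the other libraries (adjusted p of 0.056 to 0.076). Of 21 pre-mRNA processing genes 0 were higher and 1 (4.76%) lower (median -0.07). Slbp, whose protein binds the stem-loop, was at 111, 101 and 108 against 107, 96.1 and 102 CPM (-0.07 ± 0.08, edgeR adjusted p = 0.58), with overlapping groups. Cpsf3, the endonuclease that cuts histone pre-mRNA, was lower (-0.42 ± 0.12, edgeR adjusted p = 0.031), a call likewise lost without any library but control 3 (adjusted p of 0.085 to 0.1).

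Of 10 decay genes 3 (30%) were called higher and 2 (20%) lower, beside 13.3% and 12.5% of all genes (median 0.13). Without Klf5-KO 1 none of the 10 was called, and without Klf5-KO 3 there were 2 higher and 0 lower. The terminal uridylyltransferase genes Tut4 (0.41 ± 0.11) and Tut7 (0.37 ± 0.10) and the 5′ exonuclease gene Xrn1 (0.40 ± 0.10) were higher (edgeR adjusted p = 0.024, 0.022 and 0.016). Tut4 was at 26.6, 26.9 and 23.2 CPM in controls and 37.8, 34.4 and 29.9 in Klf5-KO, without overlap. The RNA helicase gene Upf1 was lower, at 235, 255 and 219 against 175, 186 and 179 CPM (-0.39 ± 0.09, edgeR adjusted p = 0.011), as was the exosome gene Exosc10 (-0.33 ± 0.09, edgeR adjusted p = 0.029). Of 21 chaperone and import genes 0 were higher and 3 (14.3%) lower (median -0.14), the latter near the 12.5% of all genes. The 3 were Nap1l1 (-0.54 ± 0.13), the FACT subunit Ssrp1 (-0.33 ± 0.10) and Ubn1 of the HIRA complex (-0.37 ± 0.12), with edgeR adjusted p = 0.017, 0.036 and 0.044. None of the 21 was called without control 1, control 2, Klf5-KO 1 or Klf5-KO 2, 1 was lower without Klf5-KO 3 and 7 without control 3.

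Variant and replacement histones are made from genes outside the clusters, for the most part as polyadenylated messages, although H2afx is known to give a stem-loop message as well. Of 11, 2 (18.2%) were higher and 0 lower (edgeR; 4 at an unadjusted p under 0.05), with a median of 0.10, near the 13.3% of all genes called higher. H2afz, encoding the variant H2A.Z, was at 331, 287 and 313 against 385, 418 and 353 CPM, and H2afx, encoding the DNA damage variant H2A.X, at 224, 202 and 219 against 266, 291 and 242 CPM. Both had a log2 fold change of 0.31 ± 0.10 and no overlap (edgeR adjusted p = 0.047 and 0.04). Neither was called with upper-quartile scaling (adjusted p = 0.059 and 0.051), with the replicate block, or without control 1, control 2, Klf5-KO 1 or Klf5-KO 2.

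S phase genes as a list lay on the other side of 0, with 1 of 26 higher and 7 lower (median -0.17), where 13.3% and 12.5% of all genes were called. The replication licensing factors Cdt1 (-0.61 ± 0.09) and Cdc6 (-0.42 ± 0.09) and the replication factor Mcm10 (-0.61 ± 0.13) were lower (edgeR adjusted p = 0.0016, 0.011 and 0.0085), and the sliding clamp gene Pcna was higher (0.36 ± 0.09, edgeR adjusted p = 0.015). The Pcna call was lost without control 2, Klf5-KO 1 or Klf5-KO 3 (adjusted p of 0.053 to 0.06), and the other 3 calls held without each library. Cdt1 was at 70, 78.9 and 65.6 CPM in controls and 45.9, 46.4 and 48.4 in Klf5-KO, and Pcna at 229, 210 and 230 against 300, 272 and 286, neither with overlap. Of 18 G2 and mitosis genes 1, Cdk1 (0.43 ± 0.09), was higher and 1, Kif23 (-0.54 ± 0.13), lower (median -0.09; edgeR adjusted p = 0.0059 and 0.017). Kif23 was not called without control 1 (adjusted p = 0.052) or Klf5-KO 2 (0.067). Without control 3 the lower S phase genes numbered 12 and those of G2 and mitosis 6; without each other library in turn, 3 or 4 S phase genes were lower.

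The per-library medians show how the lists moved apart. Over the 65 histone cluster genes the median deviation of log2(CPM + 0.1) from each gene's mean was 0.00, -0.23 and -0.21 in control 1 to 3 and 0.27, 0.18 and -0.02 in Klf5-KO 1 to 3. Over the 26 S phase genes it was 0.17, 0.18 and -0.10, then -0.08, -0.18 and -0.05. By this measure controls 1 and 2 were the highest libraries for S phase genes, and control 3 was below 0 for both lists. Structural RNAs that also lack a poly(A) tail were measured in 8 genes, of which 0 were called (edgeR; 1 at an unadjusted p under 0.05), with a median log2 fold change of 0.28 and 3 of the 8 negative. That median was 0.03 with the gene length offset, where 1 was called lower, and 0.16 to 0.39 without 1 library, whereas the histone cluster median was 0.23 with the offset. Rn7sk, the most counted, was at 11100, 16400 and 17000 CPM in controls and 18900, 18400 and 17900 in Klf5-KO (0.31 ± 0.19, edgeR adjusted p = 0.25). Their median deviations were -0.01, -0.23 and 0.06 in controls and 0.19, 0.00 and 0.01 in Klf5-KO. The part of cell cycle stage, or of the recovery of RNAs without poly(A), in the histone values was not tested.

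**Figure D5:**
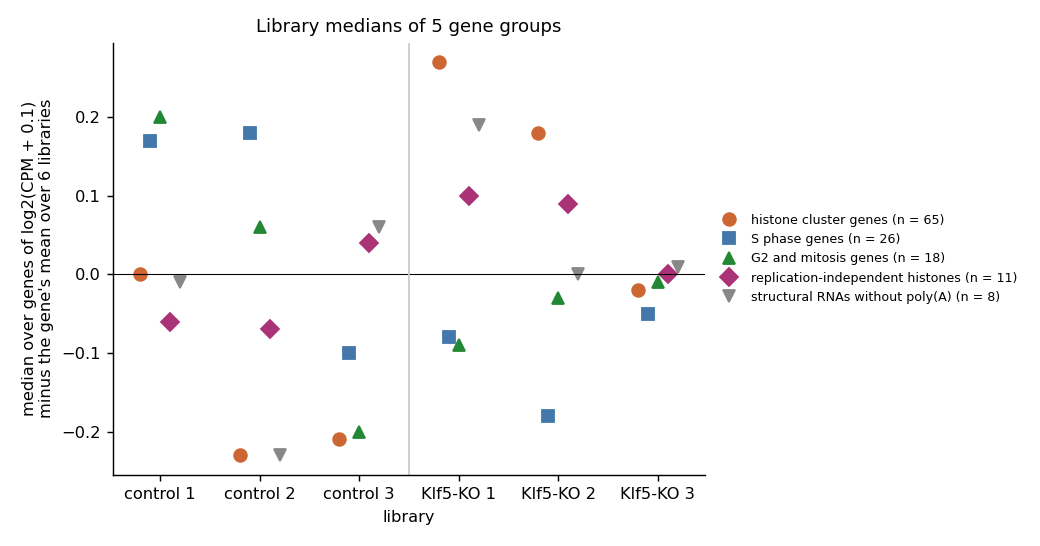
Median over genes of log2(CPM + 0.1) minus the gene's mean over the 6 libraries (y axis), per library (x axis), for histone cluster genes and 4 other gene lists. Histone cluster genes are highest in Klf5-KO 1 and 2 (0.27 and 0.18), where S phase genes are at -0.08 and -0.18.

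At the edge of the reads rule, the lowest members were Hist1h1t (14 to 62 reads) and the pseudogene Hist1h2al (22 to 36 reads). Just outside were Hist1h2ba with 2 to 10 reads and Hist1h2aa with 0 to 6, the testis forms of H2B and H2A. Also outside was Hist2h2aa1 with 0 to 3 reads. Hist2h3c1 was listed at 0 throughout, which allows up to 0.0386 to 0.0487 CPM for counting error only. That limit does not cover reads lost because they match other histone copies. The low counts of Hist2h2aa1 and Hist2h3c1 therefore cannot show low expression, and the part of such loss was not tested.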

How the data were processed

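The authors deposited raw counts of reads for each gene beside gene lengths, per the file headers. STAR 2.5.2a, mm10 and DESeq2 1.18.1 are named in the submitters' processing notes; per the file headers, featureCounts 1.4.3-p1 counted reverse-stranded reads on GENCODE vM16, with no option for multi-mapped or overlapping reads. Read length is not given in the sources used here. Reads from near-identical histone copies, or from exons shared on 1 strand, may therefore be lost.

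Symbols came from GENCODE vM21 (53274 of 53379 IDs). The test was edgeR 4.0.16 under R 4.3.3 (filterByExpr, TMM, quasi-likelihood, group as the only term), adjusted by Benjamini-Hochberg over all 19339 genes at 0.05; the biological coefficient of variation was 17%. CPM used TMM-scaled library sizes. A count of 0 allows 3 counts, for counting error only. Ribosomal-like genes took 13.5 to 18.3% of counts. Every pair of libraries differed beyond sampling noise (lowest chi-square over its degrees of freedom 44.8). The fit was tested on simulated data.

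Members and lists were chosen with earlier results of these data known. Named genes were, by type, the 3 most counted and up to 4 called each way, those outside Hist1 and those against the majority; for other lists, Slbp, Npat, Casp8ap2 and up to 4 called genes. Hist1h3g, Hist1h2bk, Hist1h2bf, Hist1h2ad, Hist1h2aj, Hist1h2an, Hist1h2bp and Exosc10, and the marker genes, were named after their values were seen. The share of unique transcript stretches was redefined after a first output, to leave aside genes sharing exon bases.

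Alternatives were RLE and upper-quartile scaling, protein-coding library sizes, other filters, DESeq2 1.42.0, limma-voom (limma 3.58.1), robust dispersion, a stricter threshold, a gene length offset, a replicate block, stricter read rules and leaving out each library.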

Additional observations from a re-analysis of the deposited data

How the results depend on the processing

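The 22 higher members were 22 with RLE, 19 with upper-quartile and 25 with protein-coding scaling, 33 with no filter, 29 with DESeq2 and 22 with limma-voom. The median log2 fold change over all members tested, called or not, stayed between 0.23 and 0.38 in each alternative. With a gene length offset 14 members were higher. Pathway genes here pool the report's other lists, with the number tested in brackets. They are histone gene transcription (9), pre-mRNA processing (21), decay (10), chaperones and import (21), variant and replacement histones (11), S phase (26), G2 and mitosis (18) and structural RNAs (8). At an adjusted p under 0.01, 5 members were higher and 0 lower, of all genes 1226 were higher and 1118 lower, and of pathway genes 1 and 2. The 1 lower member became 0 with CPM above 1 in 3 libraries and with at least 100 or at least 1000 reads, which leave out Hist1h1t. With no filter 12 pathway genes were higher (7 in the report's fit), where all genes higher were 3127 of 34193 tested (2581 of 19339 in the report's fit).

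Leaving out each library gave 7 to 24 members higher; all genes higher ranged from 1605 to 2740 and lower from 1467 to 2664, pathway genes higher from 2 to 9 and lower from 4 to 34 (15 in the report's fit). The members' median changed sign in none. Small fold changes turned. Hist1h2ab was -0.02 with the length offset and -0.01 with the offset and the replicate block, where Casp8ap2 was 0.00. Over the fits without 1 library, Hist1h2ab ranged from -0.06 to 0.16, Hist1h2af from -0.20 to 0.04, Hist1h3b from 0.00 to 0.25, Hist2h3c2 from -0.03 to 0.53, Hist3h2ba from -0.22 to 0.02, Npat from -0.10 to 0.15 and Casp8ap2 from -0.20 to 0.11. The cause was not tested.

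Libraries of the same replicate number showed no shared deviation (correlations -0.01, 0.01 and -0.04), which cannot tell whether they were paired or handled together. With the replicate block 24 members were higher and 1 lower, 20 of the higher ones shared with the fit without it. Depth limits Hist1h1t, Hist1h2al and Hist1h2aj, each at or under 112 reads a library, and sequence likeness limits many H2A, H2B, H3 and H4 copies.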

Other observations

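Hist3h2bb-ps, an H2B pseudogene outside the name rule, was at 2.94, 2.36 and 3.58 CPM in control 1 to 3 and 5.32, 6.56 and 4.34 CPM in Klf5-KO 1 to 3, with no overlap. Its log2 fold change was 0.87 ± 0.22 (edgeR adjusted p = 0.018), above the highest value among the 65 histone cluster genes.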
